A study of Vitis vinifera and Vitis quinquangularis with 24 samples.

Results

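In the skin of grape berries, 39 of 27711 gene models stood higher at E-L 35 than in hard green berries at E-L 33, in both of the cultivars sampled, and were still higher at E-L 38. They were chosen from the deposited counts. Each count was divided by the sum of its library and multiplied by 1000000 (CPM), and the median of log2(CPM + 1) was taken over the 3 libraries of a group. A model was a member where that median was at least 2 above its E-L 33 value at E-L 35, and at least 1 above it at E-L 38, in each cultivar. In all, 60 models met these thresholds. Of these, 21 with identifiers that begin VIT_16s0100g, all on chromosome 16, were left out by the rule, which leaves 39. The values at stages 33, 35 and 38 therefore chose the members and are given as a description, without a test. The E-L 34 libraries had no part in the choice, so the comparison of the cultivars at E-L 34 is the one that was tested.

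The 24 libraries came from berry skin of Danfeng-2, an accession of Vitis quinquangularis, a wild grape of East Asia, and of Cabernet Sauvignon, a red wine cultivar of Vitis vinifera. Each was sampled at 4 stages of the Eichhorn-Lorenz (E-L) scale, 33, 34, 35 and 38, which cover hard green berries, the start of softening, the start of colouring and berries ripe for harvest, and each of the 8 groups held 3 libraries. The labels name no treatment, berry age in days, site or vintage, and do not state if those 3 came from separate vines, so a p-value covers no more than the spread among these libraries, and that spread may be technical. With 1 accession of each species, a difference of species and one of accession cannot be told apart.

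Veraison, the turn from green growth to ripening, is when grape berries soften, load hexose sugars, lose acid and, in coloured cultivars, deposit anthocyanins in the skin. Abscisic acid is known to promote it, and the skin is where flavonoids, stilbenes such as resveratrol, and many defence proteins are made in the ripening berry. The members are models whose levels were higher after this turn in both species. The files give no gene names or products, and 0 of 27711 identifiers were found in the table of RefSeq genes, so each member is given by its identifier and its place in the coordinates of the files, and no role is given to it. For the same reason the skin label was not checked against marker genes here. Skin is a mixture of cell layers, so fewer cells of a type and less RNA per cell cannot be told apart.

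Library totals lay between 13201295 and 23095568 counts. Log2 levels of partner libraries correlated across models at 0.995 to 0.998 in 18 of 24 pairs and at 0.941 to 0.973 in the other 6. Each of those 6 pairs held replicate 1 of Danfeng-2 at E-L 33 or at E-L 35, or replicate 3 of Cabernet Sauvignon at E-L 34. The members stood apart in these libraries as well. In Danfeng-2 E-L 35 replicate 1, 14 of 39 members were over 2-fold above the mean of the 2 partners and 14 were over 2-fold below it, with ratios from 0.117 to 16.9. In Danfeng-2 E-L 33 replicate 1, 6 were over 2-fold above and 17 below, and in Cabernet Sauvignon E-L 34 replicate 3, 16 were above and 2 below. In the Danfeng-2 E-L 38 and Cabernet Sauvignon E-L 35 libraries no member was over 2-fold from its partners. A median over 3 libraries follows the 2 that lie together, and the rule applied without the 3 libraries gave 38 models, 37 of them among the 39. VIT_10s0003g00480 and VIT_19s0015g02680 then fell short, with Danfeng-2 differences of 1.88 and 1.96, and VIT_08s0007g08840 came in.

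**Figure D1:**
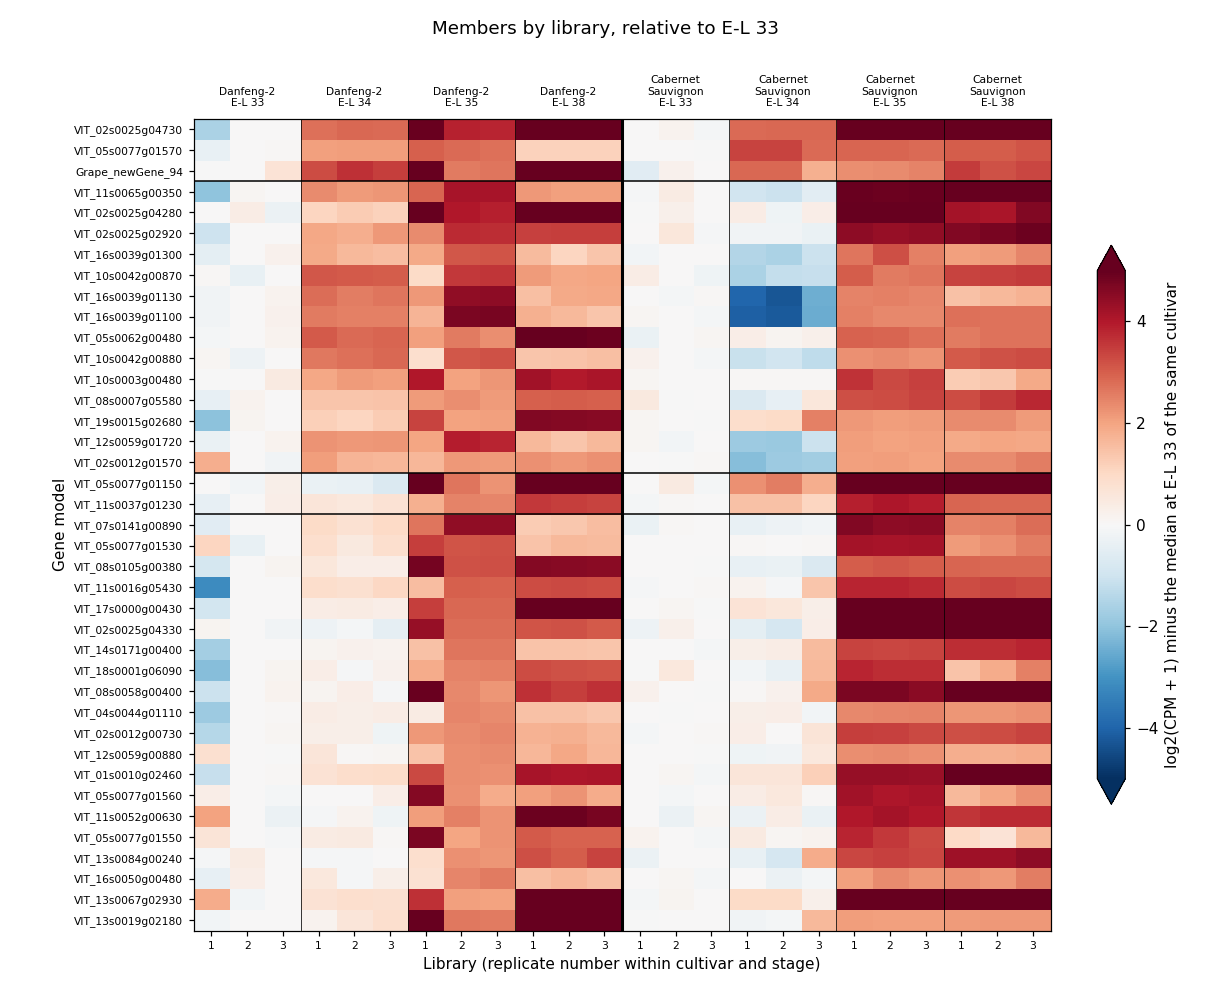
Level of each of the 39 members in each of the 24 libraries, as log2(CPM + 1) minus the median at E-L 33 of the same cultivar; rows are gene models, columns are libraries, Danfeng-2 left of Cabernet Sauvignon, and black lines part the groups and the classes by E-L 34. Red at E-L 35 and E-L 38 is what the rule asked for. At E-L 34 the models of the second block are red in Danfeng-2, and 7 of them have a median at least 1 below E-L 33 in Cabernet Sauvignon. Blue also marks smaller differences below E-L 33. Danfeng-2 E-L 35 replicate 1 differs from its partners in many rows.

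The size of the difference that chose the members varied widely. In Danfeng-2 the level at E-L 35 was 2.06 to 4.72 above that at E-L 33 on the log2(CPM + 1) scale, with a median of 2.66 over the 39 members, and in Cabernet Sauvignon it was 2.05 to 8.17 above, with a median of 3.42. It was larger in Cabernet Sauvignon for 27 of 39 members; the same held for 42.4% of the 18375 models tested, and since the rule set these values nothing is read from the count. All 39 members were among the models that edgeR called higher at E-L 35 against E-L 33 in each cultivar. Of all tested models, 7.23% were called in Danfeng-2 and 14.2% in Cabernet Sauvignon. The rule strongly favours such calls, so nothing is read from them either. The last members inside the threshold were VIT_02s0012g01570 and VIT_12s0059g01720 at 2.05, VIT_19s0015g02680 at 2.06, and VIT_13s0019g02180 and VIT_13s0067g02930 at 2.07, for the smaller of the 2 cultivars' differences. The first models outside it were VIT_14s0108g01070 and VIT_07s0005g03340 within 0.01 of the threshold, and VIT_01s0010g03930 and VIT_18s0001g08300, both at 1.98. The next one outside, VIT_05s0049g00510, had 1.93 in Danfeng-2 and 10.4 in Cabernet Sauvignon.

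VIT_07s0141g00890 (chromosome 7, 517619 to 519409, plus strand) had the largest difference reached in both cultivars, 4.42 in Danfeng-2 and 4.50 in Cabernet Sauvignon. It held 9.76, 35.5 and 34.8 CPM at E-L 35 and 0.129, 0.672 and 0.693 CPM at E-L 33 in Danfeng-2. In Cabernet Sauvignon it held 32.5, 28.8 and 29.4 CPM and 0.0702, 0.404 and 0.344 CPM at the same stages. The stages do not overlap in either cultivar, and replicate 1 of Danfeng-2 E-L 35 is the low one of its group. VIT_11s0065g00350 (chromosome 11, 14090390 to 14092198, minus strand) was next, and held 55.8, 132 and 133 CPM at E-L 35 against 0.902, 7.11 and 6.61 CPM at E-L 33 in Danfeng-2 and 101, 98.7 and 102 against 2.18, 3.41 and 2.34 CPM in Cabernet Sauvignon.

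VIT_02s0025g04280 (chromosome 2, 3799827 to 3812825, plus strand) shows how far 1 library can stand from its partners. It held 5997, 366 and 342 CPM at E-L 35 in Danfeng-2, against 21.96, 28.5 and 17.7 CPM at E-L 33, and 5214, 5134 and 4913 CPM against 41.8, 50.7 and 42.9 CPM in Cabernet Sauvignon. Replicate 1 of Danfeng-2 thus lay at the Cabernet Sauvignon level and its partners far below it. The widest gaps between the cultivars' differences were in VIT_13s0067g02930 (chromosome 13, 1578658 to 1580497, plus strand), with 2.07 in Danfeng-2 and 8.17 in Cabernet Sauvignon, and in VIT_02s0025g04330 (chromosome 2, 3821899 to 3822797, plus strand), with 2.80 and 7.85. VIT_13s0067g02930 held 266, 86.9 and 83.3 CPM in Danfeng-2 and 2143, 2165 and 2059 CPM in Cabernet Sauvignon at E-L 35. VIT_02s0025g04330 held 45.5, 14.9 and 14.9 CPM in Danfeng-2 and 880.4, 864 and 841 CPM in Cabernet Sauvignon at that stage. In both models every Danfeng-2 library was below every Cabernet Sauvignon library at E-L 35.

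**Figure D2:**
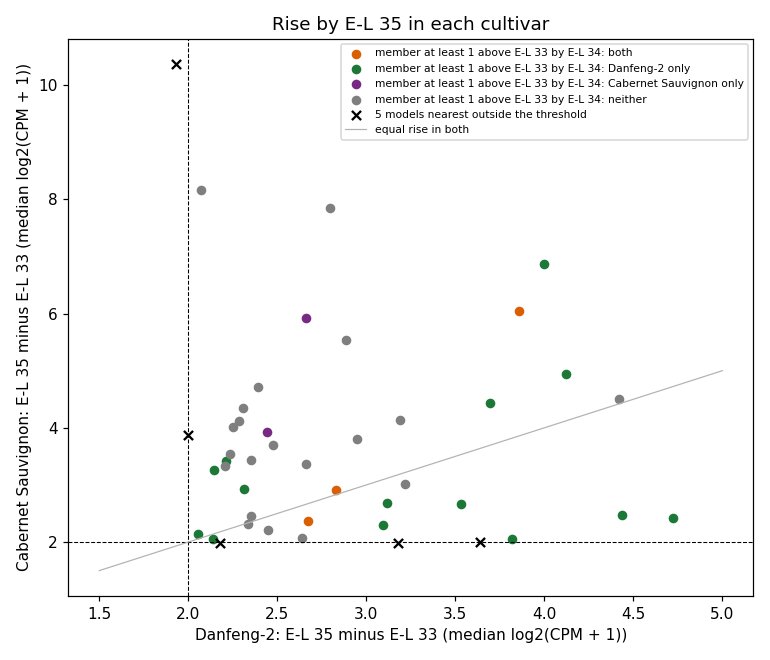
Difference between E-L 35 and E-L 33 of the median log2(CPM + 1), Danfeng-2 on the x axis and Cabernet Sauvignon on the y axis; points are the 39 members coloured by whether they were at least 1 above E-L 33 by E-L 34, crosses are the 5 models nearest outside, dashed lines the threshold of 2 and the grey line equal differences. The members lie between 2.06 and 4.72 in Danfeng-2 and between 2.05 and 8.17 in Cabernet Sauvignon, and 27 of 39 lie above the grey line.

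The comparison at E-L 34 asks whether the species differ at the start of softening in models that stand high in both once the berries colour. At this stage, edgeR's quasi-likelihood test called 22 of 39 members higher in Danfeng-2 than in Cabernet Sauvignon and 7 lower, at a Benjamini-Hochberg adjusted p below 0.05 over all 18375 models tested and a change of at least 2-fold. Among all tested models 12.8% were called higher and 14.6% lower, so the share of members called higher (56.4%) was above the background and the share called lower (17.9%) was close to it. The filter on low counts was set over all 8 groups, so the members could pass it through the stages where the rule required them to be high. In a fit of the 2 compared groups alone, 37 of 39 members were tested and 20 were called higher and 6 lower. Of all models tested in that fit, 12.5% were called higher and 13.9% lower. VIT_05s0077g01550 and VIT_16s0050g00480 were not tested there. The median log2 fold change was 1.81 over the members and -0.01 over all tested models. The libraries of the 2 cultivars did not overlap in 30 members at this stage, 23 with Danfeng-2 above and 7 with it below, where 38% and 27.1% of all tested models were of those kinds. The counts were 20 higher and 7 lower without Cabernet Sauvignon E-L 34 replicate 3, where 14.4% and 14.7% of all models tested were called. Without all 3 libraries that stood apart they were 23 higher and 7 lower, against 15.5% and 15.7%.

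VIT_10s0042g00870 (chromosome 10, 14246930 to 14306520, plus strand) had the highest fold change among members that reached 20 CPM on average in Danfeng-2. It held 41.4, 40.3 and 39.7 CPM in Danfeng-2 and 0.390, 0.784 and 0.838 CPM in Cabernet Sauvignon at E-L 34 (log2 fold change 5.80 ± 0.53 SE, adjusted p = 3.3e-08). VIT_10s0042g00880 held 17.1, 18.6 and 20.2 CPM in Danfeng-2 and 0.476, 0.646 and 0.326 CPM in Cabernet Sauvignon (log2 fold change 5.13 ± 0.48 SE, adjusted p = 4.3e-08). From start to end, VIT_10s0042g00870 and VIT_10s0042g00880 overlap on the same strand over 53623 bases. Their lengths are only 1424 and 1285 bp, and overlap of the counted sequence was not computed. Reads may be split between these 2 models, so they cannot be taken as independent. VIT_11s0065g00350 held 37.6, 32.5 and 33.7 CPM in Danfeng-2 and 0.736, 0.600 and 1.30 CPM in Cabernet Sauvignon (log2 fold change 5.18 ± 0.49 SE, adjusted p = 4.4e-08).

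Next in order came VIT_08s0007g05580 (chromosome 8, 19482695 to 19484048, minus strand), with 21.8, 22.2 and 22.5 CPM in Danfeng-2 and 0.563, 0.923 and 2.84 CPM in Cabernet Sauvignon (log2 fold change 3.85 ± 0.32 SE, adjusted p = 9.2e-09). VIT_16s0039g01100 (chromosome 16, 598340 to 616099, minus strand) held 43.6, 41.05 and 41.8 CPM in Danfeng-2 and 2.12, 1.89 and 8.56 CPM in Cabernet Sauvignon (log2 fold change 3.24 ± 0.56 SE, adjusted p = 7.9e-05). VIT_11s0016g05430 (chromosome 11, 4812618 to 4814041, plus strand) held 31.1, 28.9 and 34.7 CPM in Danfeng-2 and 2.90, 2.26 and 8.004 CPM in Cabernet Sauvignon (log2 fold change 2.75 ± 0.57 SE, adjusted p = 4.7e-04). In all 3 the Cabernet Sauvignon library nearest to Danfeng-2 was replicate 3, and without it the log2 fold changes were 4.73, 4.22 and 3.44. The adjusted p-values are from edgeR here and in the rest of the E-L 34 comparison.

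In 2 members called higher in Danfeng-2, Cabernet Sauvignon was close to 0. VIT_10s0003g00480 held 5.97, 7.02 and 6.68 CPM in Danfeng-2 and had 3 counts in all in Cabernet Sauvignon at E-L 34, a ratio of 145 with a 95% counting interval of 49.1 to 708 (exact binomial). VIT_05s0077g01530 held 2.11, 1.44 and 2.14 CPM in Danfeng-2 and had 2 counts in all in Cabernet Sauvignon, a ratio of 62.5 with an interval of 16.8 to 525. These intervals cover counting error alone. Both cultivars had the transcript in the next 2. VIT_14s0171g00400 (chromosome 14, 26211672 to 26215889, minus strand) held 249, 259.7 and 252 CPM in Danfeng-2 and 31.2, 32.8 and 76.96 CPM in Cabernet Sauvignon (log2 fold change 2.33 ± 0.37 SE, adjusted p = 3.0e-05). VIT_01s0010g02460 (chromosome 1, 19543650 to 19546709, plus strand) held 67.1, 75.5 and 76.4 CPM in Danfeng-2 and 11.1, 11.2 and 17.3 CPM in Cabernet Sauvignon (log2 fold change 2.36 ± 0.27 SE, adjusted p = 5.6e-07). Both were also higher in every Danfeng-2 library at stages 33, 35 and 38.

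The remaining 12 members called higher in Danfeng-2 had log2 fold changes between 1.34 (VIT_02s0025g04730) and 4.73 (VIT_16s0039g01300). Without Cabernet Sauvignon replicate 3, VIT_16s0039g01300 had 2 counts left in Cabernet Sauvignon, a ratio of 111 with a counting interval of 30.3 to 922, and VIT_12s0059g01720 had a log2 fold change of 4.38 in place of 3.67. VIT_02s0025g02920 (chromosome 2, 2496168 to 2512520, minus strand) held 8.43, 7.67 and 9.92 CPM in Danfeng-2 and 0.736, 0.738 and 0.558 CPM in Cabernet Sauvignon (log2 fold change 3.55 ± 0.42 SE, adjusted p = 8.8e-07), with no overlap. VIT_02s0012g00730 held 4.003, 4.07 and 2.48 CPM in Danfeng-2 and 0.606, 0.323 and 1.02 CPM in Cabernet Sauvignon (log2 fold change 2.32 ± 0.42 SE, adjusted p = 1.2e-04). Of the 12, VIT_05s0062g00480 had the smallest error, with 15.3, 12.98 and 13.6 CPM in Danfeng-2 and 2.21, 1.85 and 2.05 CPM in Cabernet Sauvignon (log2 fold change 2.66 ± 0.16 SE, adjusted p = 1.1e-10). VIT_13s0067g02930, the model with the widest difference in Cabernet Sauvignon, held 33.9, 36.2 and 35.7 CPM in Danfeng-2 and 13.4, 13.5 and 7.91 CPM in Cabernet Sauvignon (log2 fold change 1.48 ± 0.46 SE, adjusted p = 0.01). Its call was lost without Cabernet Sauvignon replicate 3, with an adjusted p of 0.051. The call of VIT_16s0050g00480, which held 0.913, 0.262 and 0.620 CPM in Danfeng-2 and 0.216, 0 and 0.140 CPM in Cabernet Sauvignon, had an adjusted p of 0.047 and was lost when any one of 4 libraries was left out. Its log2 fold change was 2.12, and without Cabernet Sauvignon replicate 1 it rested on 3 counts there, a ratio of 8.501 with a counting interval of 2.61 to 43.9. That of VIT_18s0001g06090 was lost without Cabernet Sauvignon replicate 1 or 2, with adjusted p-values of 0.076 and 0.073, and its log2 fold change of 1.84 became 3.45 without replicate 3.

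Of the 7 members called lower in Danfeng-2 at E-L 34, 3 reached 20 CPM on average in Cabernet Sauvignon and did not overlap. VIT_13s0019g02180 (chromosome 13, 3468026 to 3471865, plus strand) held 1.55, 2.43 and 3.03 CPM in Danfeng-2 and 52.8, 55.4 and 186 CPM in Cabernet Sauvignon (log2 fold change -5.48 ± 0.69 SE, adjusted p = 1.9e-06). VIT_19s0015g02680 (chromosome 19, 12999421 to 13090802, minus strand) held 23.5, 21.7 and 24.5 CPM in Danfeng-2 and 45.8, 47.9 and 143 CPM in Cabernet Sauvignon (log2 fold change -1.86 ± 0.46 SE, adjusted p = 0.0021). In both, Cabernet Sauvignon replicate 3 was far above its partners, and without it the log2 fold changes were -4.69 and -1.18. VIT_08s0105g00380 (chromosome 8, 7600708 to 7603465, minus strand) held 11.5, 9.70 and 9.65 CPM in Danfeng-2 and 28.8, 30.1 and 22.2 CPM in Cabernet Sauvignon (log2 fold change -1.51 ± 0.32 SE, adjusted p = 5.8e-04), and replicate 3 was the lowest of its group.

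The other 4 members called lower were scarce in Danfeng-2. VIT_05s0077g01150 held 0.492, 0.459 and 0.138 CPM in Danfeng-2 and 5.98, 7.43 and 3.96 CPM in Cabernet Sauvignon (log2 fold change -4.08 ± 0.87 SE, adjusted p = 6.0e-04). VIT_05s0077g01560 held 0.140, 0.131 and 0.413 CPM in Danfeng-2 and 2.47, 2.91 and 1.81 CPM in Cabernet Sauvignon (log2 fold change -3.47 ± 0.82 SE, adjusted p = 0.0015; -4.18 without Danfeng-2 replicate 3). Both groups of each model lie apart. VIT_13s0084g00240 had 1 count in Danfeng-2 in all and 2.47, 1.48 and 15.2 CPM in Cabernet Sauvignon, a ratio of 0.00363 with a counting interval of 9.16e-05 to 0.0203. Without Cabernet Sauvignon replicate 3, the high library of this model, the ratio was 0.0114 with an interval of 0.000286 to 0.0654. The 1 count was in Danfeng-2 replicate 3, and without that library Danfeng-2 was at least 61.6-fold lower, against a floor of 3 counts over its 2 libraries. The call of VIT_02s0025g04330 was lost in 3 of the 6 fits that left out 1 library, and its log2 fold change of -1.33 became -0.76 without Cabernet Sauvignon replicate 3. The 10 members not called had log2 fold changes between -0.98 and 0.78. The highest, that of VIT_11s0052g00630, became 1.47 without Cabernet Sauvignon replicate 2, and that of VIT_05s0077g01550 was 0.70 and became 1.34 without Cabernet Sauvignon replicate 1; neither was called. The value of VIT_11s0037g01230 lay just short of 2-fold, with an adjusted p of 4.9e-04, and it was called lower with the size factors of DESeq2 (-1.01) and without Cabernet Sauvignon replicate 3 (-1.16). Also among the 10, VIT_05s0077g01570 held 2779, 2817 and 2849 CPM in Danfeng-2 and 3086, 3115 and 2124 CPM in Cabernet Sauvignon (log2 fold change -0.10 ± 0.13 SE, adjusted p = 0.55). VIT_08s0058g00400, at 1.47, 1.84 and 1.17 CPM in Danfeng-2 and 0.390, 0.554 and 4.05 CPM in Cabernet Sauvignon, had a log2 fold change of -0.23, which turned to 1.49 without Cabernet Sauvignon replicate 3.

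**Figure D3:**
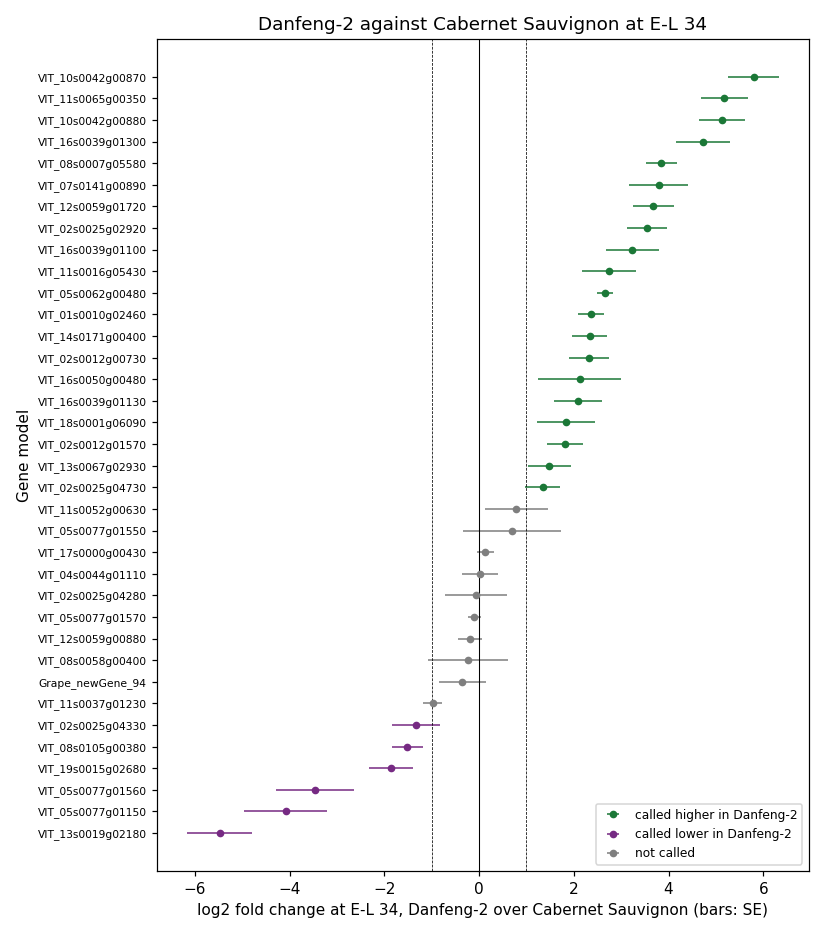
Log2 fold change at E-L 34 of 36 of the 39 members, Danfeng-2 over Cabernet Sauvignon, from edgeR, with its SE as a bar; dashed lines mark a 2-fold change and colour marks the call. The 20 members called higher that are shown run from 1.34 to 5.80 and the 6 called lower from -5.48 to -1.33; VIT_10s0003g00480, VIT_05s0077g01530 and VIT_13s0084g00240 are not shown because their lower group holds 3, 2 and 1 counts.

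Set against their own E-L 33 levels, the members parted at E-L 34. A difference of at least 1 on the log2(CPM + 1) scale was reached by 17 of 39 members in Danfeng-2 and by 5 in Cabernet Sauvignon, where 3.23% and 5.13% of all tested models reached it. By cultivar, 3 members reached it in both, 14 in Danfeng-2 alone, 2 in Cabernet Sauvignon alone and 20 in neither. In Cabernet Sauvignon 7 members were at least 1 below their E-L 33 level at E-L 34 (11.3% of all tested models), and in Danfeng-2 none was (0 members, against 4.17%). Because the rule chose models that are low at E-L 33, these differences are a description. Of the 14 members that reached 1 in Danfeng-2 alone, the E-L 34 test called 12 higher in Danfeng-2 and 1 lower, and of the 20 that reached it in neither it called 9 higher and 5 lower. The E-L 34 libraries also set these classes, so a call in the direction of a class is partly built in. Nothing is read from the calls by class.

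All 7 members that were at least 1 below their E-L 33 level at E-L 34 in Cabernet Sauvignon were at least 1 higher in Danfeng-2, a combination found in 1.32% of all tested models. They were VIT_16s0039g01100, VIT_16s0039g01130 and VIT_16s0039g01300 on chromosome 16, VIT_10s0042g00870 and VIT_10s0042g00880 on chromosome 10, VIT_12s0059g01720 on chromosome 12 and VIT_02s0012g01570 on chromosome 2. They were singled out after their values were seen. VIT_10s0042g00870 and VIT_10s0042g00880 overlap and may share reads, so these models cannot be taken as independent. The combination was held by 7 of 39 members (17.9%), against 1.32% of all tested models. The rule chose models that are low at E-L 33, which favours a higher level at E-L 34 in Danfeng-2. Nothing is read from these shares. Over the 4 stages in order, the median level of VIT_16s0039g01100 was 6.39, 41.8, 194 and 21.9 CPM in Danfeng-2. In Cabernet Sauvignon it was 51.8, 2.12, 281 and 347 CPM. The Cabernet Sauvignon libraries at E-L 34 held 2.12, 1.89 and 8.56 CPM, against 55.5, 51.8 and 48.5 CPM at E-L 33, so that the stages do not overlap.

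VIT_16s0039g01130 (chromosome 16, 619739 to 652698, plus strand) had medians of 1.29, 13.6, 48.6 and 7.44 CPM in Danfeng-2 and 39.4, 1.56, 223 and 123 CPM in Cabernet Sauvignon over the 4 stages. At E-L 34 it held 14.7, 12.7 and 13.6 CPM in Danfeng-2 and 1.56, 1.06 and 6.42 CPM in Cabernet Sauvignon (log2 fold change 2.09 ± 0.51 SE, adjusted p = 0.0018), and the log2 fold change was 3.21 without Cabernet Sauvignon replicate 3. The order of the cultivars turned between stages in this model: every Danfeng-2 library was below every Cabernet Sauvignon library at stages 33, 35 and 38, and above at E-L 34. The same turn was seen in VIT_16s0039g01100, VIT_16s0039g01300 and VIT_02s0012g01570. VIT_16s0039g01300 (chromosome 16, 706775 to 712536, plus strand) had medians of 0.840, 4.72, 14.98 and 3.86 CPM in Danfeng-2 and 1.96, 0.0866, 17.995 and 12.02 CPM in Cabernet Sauvignon. VIT_02s0012g01570 (chromosome 2, 7838221 to 7840565, minus strand) differed from its E-L 33 median at E-L 34 by 1.69 in Danfeng-2 and by -1.83 in Cabernet Sauvignon on the log2(CPM + 1) scale, and was called higher in Danfeng-2 at E-L 34 (log2 fold change 1.81 ± 0.38 SE, adjusted p = 5.3e-04).

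On chromosome 10, VIT_10s0042g00870 had medians of 3.94, 40.3, 56.2 and 18.3 CPM in Danfeng-2 and 3.12, 0.784, 25.2 and 43.3 CPM in Cabernet Sauvignon, and VIT_10s0042g00880 had 1.92, 18.6, 23.95 and 6.92 CPM in Danfeng-2 and 2.19, 0.476, 14.7 and 28.3 CPM in Cabernet Sauvignon. VIT_12s0059g01720 (chromosome 12, 6607627 to 6609848, minus strand) had 1.62, 11.2, 36.1 and 7.04 CPM in Danfeng-2 and 4.26, 0.476, 20.8 and 19.1 CPM in Cabernet Sauvignon. The median of all 7 was lowest at E-L 34 in Cabernet Sauvignon, and at E-L 33 in Danfeng-2. In 6 of the 7, all but VIT_02s0012g01570, replicate 1 was the lowest of the Danfeng-2 E-L 35 libraries by over 2-fold, for example 8.53, 56.2 and 57.5 CPM in VIT_10s0042g00870. In Cabernet Sauvignon E-L 34, replicate 3 was the highest of its group in 6 of the 7, all but VIT_10s0042g00880. Without the 3 libraries that stood apart, 8 members were at least 1 higher at E-L 34 in Danfeng-2 and at least 1 lower in Cabernet Sauvignon: these 7 and VIT_11s0065g00350, with 2.14 in Danfeng-2 and -1.001 in Cabernet Sauvignon. The 21 left-out models of chromosome 16 had summed levels of 558 to 577 CPM in Danfeng-2 and 17.6 to 53.5 CPM in Cabernet Sauvignon at E-L 34, and of 45.5 to 55.5 CPM and 110.7 to 113 CPM at E-L 33.

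**Figure D4:**
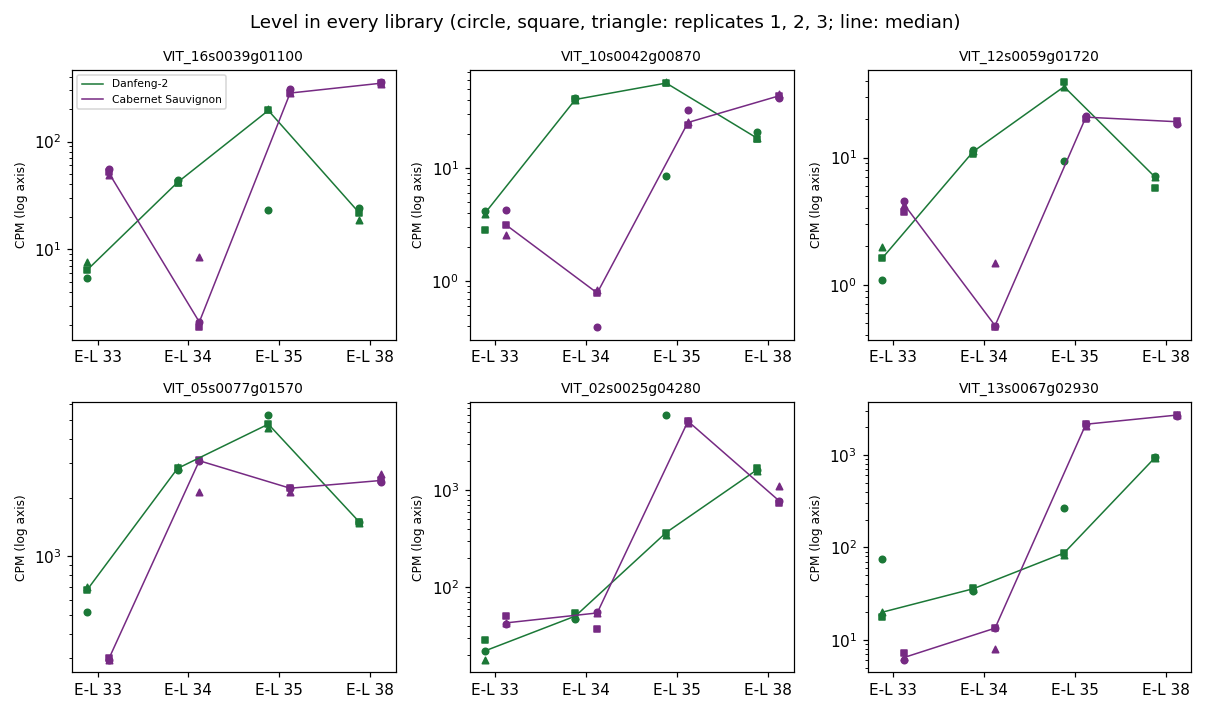
CPM on a log axis at the 4 stages for 6 members, every library shown, Danfeng-2 in green and left of Cabernet Sauvignon in purple at each stage; circles, squares and triangles are replicates 1, 2 and 3, and lines join the medians. In the upper row Cabernet Sauvignon is lowest at E-L 34 (medians of 2.12, 0.784 and 0.476 CPM) while Danfeng-2 stands at 41.8, 40.3 and 11.2 CPM; in the lower row are the 3 members with the highest FPKM at E-L 35.

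The 3 members already at least 1 above E-L 33 by E-L 34 in both cultivars were VIT_05s0077g01570, VIT_02s0025g04730 and Grape_newGene_94. VIT_05s0077g01570 (chromosome 5, 1232115 to 1264645, plus strand) had medians of 669, 2817, 4750.0 and 1502 CPM in Danfeng-2 and 296, 3086, 2231 and 2445 CPM in Cabernet Sauvignon over the 4 stages. In Cabernet Sauvignon it was thus at its highest at E-L 34. VIT_02s0025g04730 (chromosome 2, 4287376 to 4298289, plus strand) had 1.96, 19.9, 41.97 and 166 CPM in Danfeng-2 and 0.140, 7.26, 74.1 and 78.9 CPM in Cabernet Sauvignon, and was called higher in Danfeng-2 at E-L 34 (log2 fold change 1.34 ± 0.36 SE, adjusted p = 0.0043). Grape_newGene_94 (chromosome 10, 10865125 to 10866881, plus strand), the only newly predicted model among the members, had 0.336, 13.6, 7.51 and 101 CPM in Danfeng-2 and 1.85, 19.9, 13.7 and 27.5 CPM in Cabernet Sauvignon. The 2 members that reached 1 in Cabernet Sauvignon alone were VIT_05s0077g01150, with differences at E-L 34 of -0.38 in Danfeng-2 and 2.30 in Cabernet Sauvignon, and VIT_11s0037g01230, with 0.62 and 1.46.

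Among the 20 members that reached 1 at E-L 34 in neither cultivar, the level that met the rule was reached between E-L 34 and E-L 35. VIT_17s0000g00430 (chromosome 17, 299540 to 302242, plus strand) held 316, 211 and 212 CPM at E-L 35 and 36.8, 37.3 and 35.6 CPM at E-L 34 in Danfeng-2. In Cabernet Sauvignon it held 1028, 1010.2 and 1036 CPM at E-L 35 and 34.6, 31.7 and 26.01 CPM at E-L 34. At E-L 34 the cultivars were close and not called (log2 fold change 0.13 ± 0.18 SE, adjusted p = 0.57), and at E-L 35 Cabernet Sauvignon was higher in every library. VIT_04s0044g01110 (chromosome 4, 22455944 to 22458732, plus strand) held 187, 177 and 188 CPM in Danfeng-2 and 179.8, 187 and 135 CPM in Cabernet Sauvignon at E-L 34 (log2 fold change 0.02 ± 0.39 SE, adjusted p = 0.97). At E-L 35 it held 193, 790.2 and 742 CPM in Danfeng-2 and 794, 816 and 823 CPM in Cabernet Sauvignon, where the 2 partners of Danfeng-2 replicate 1 lie near the Cabernet Sauvignon level.

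After E-L 35 the members spread widely in Danfeng-2 and less in Cabernet Sauvignon. In Danfeng-2, 15 of 39 were at least 1 above their E-L 35 level at E-L 38 on the log2(CPM + 1) scale, 11 were at least 1 below it and 13 lay between. In Cabernet Sauvignon 1 was above, 9 were below and 29 lay between. Of all tested models, 7.22% were higher and 15.7% lower in Danfeng-2, and 2.18% and 5.1% in Cabernet Sauvignon. Both stages belong to the rule, which selects for high E-L 35 values and sets a floor at E-L 38, so nothing is read from these shares. The cultivars fell in the same class in 12 members, 9 within 1 in both, 2 lower in both and 1 higher in both.

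The member at least 1 higher at E-L 38 in both cultivars was VIT_05s0077g01150 (chromosome 5, 894812 to 896133, minus strand). Its medians over the 4 stages were 0.902, 0.459, 11.04 and 153 CPM in Danfeng-2 and 0.421, 5.98, 84.8 and 457 CPM in Cabernet Sauvignon. The 2 that were lower in both were VIT_07s0141g00890, with medians of 3.20 CPM at E-L 38 against 34.8 at E-L 35 in Danfeng-2 and 6.69 against 29.4 in Cabernet Sauvignon, and VIT_05s0077g01530, with 4.24 against 14.95 and 3.86 against 16.7 CPM. Both had their highest median at E-L 35 in each cultivar. VIT_05s0077g01530 had 0 counts in Cabernet Sauvignon at E-L 33, and overlaps VIT_05s0077g01570 on the other strand.

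In 9 members Danfeng-2 was at least 1 below its E-L 35 level at E-L 38 while Cabernet Sauvignon was within 1. Of these, 6 were among the 7 that were low at E-L 34 in Cabernet Sauvignon. VIT_16s0039g01100 held 24.2, 21.9 and 18.6 CPM at E-L 38 in Danfeng-2 and 357, 347 and 343 CPM in Cabernet Sauvignon. The other 3 were VIT_11s0065g00350, VIT_05s0077g01570 and VIT_14s0171g00400. VIT_11s0065g00350 had medians of 6.61, 33.7, 132 and 30.5 CPM in Danfeng-2 and 2.34, 0.736, 101 and 131 CPM in Cabernet Sauvignon, so that its E-L 38 level in Danfeng-2 was close to that at E-L 34. VIT_14s0171g00400 had 224, 252, 1423 and 601 CPM in Danfeng-2 and 25.4, 32.8, 272 and 337 CPM in Cabernet Sauvignon.

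In 11 members Danfeng-2 was at least 1 above its E-L 35 level at E-L 38 and Cabernet Sauvignon was within 1. VIT_17s0000g00430 held 1452, 1433 and 1464 CPM at E-L 38 in Danfeng-2 and 972, 952 and 1008 CPM in Cabernet Sauvignon, so the cultivar that was lower at E-L 35 was higher in ripe skin. VIT_13s0019g02180 had medians of 1.28, 2.43, 13.2 and 178 CPM in Danfeng-2 and 60.03, 55.4, 255 and 275 CPM in Cabernet Sauvignon. VIT_13s0067g02930 had 19.9, 35.7, 86.9 and 931 CPM in Danfeng-2 and 6.46, 13.4, 2143 and 2689.7 CPM in Cabernet Sauvignon. In these 2 models Danfeng-2 stayed below Cabernet Sauvignon in every library at E-L 38. VIT_01s0010g02460 had 40.5, 75.5, 205 and 701 CPM in Danfeng-2 and 7.02, 11.2, 163 and 260.3 CPM in Cabernet Sauvignon, and here every Danfeng-2 library was above at all 4 stages. VIT_11s0052g00630 had 1.51, 1.40, 10.95 and 73.6 CPM in Danfeng-2 and 0.842, 0.520, 28.7 and 23.4 CPM in Cabernet Sauvignon. Of the 9 members within 1 in both cultivars, VIT_12s0059g00880 (chromosome 12, 5678804 to 5681387, minus strand) had 18.7, 20.2, 98.4 and 61.9 CPM in Danfeng-2 and 22.8, 20.3, 117 and 83.1 CPM in Cabernet Sauvignon. VIT_13s0084g00240 (chromosome 13, 19001916 to 19003049, plus strand) had 0.0533, 0, 3.86 and 8.71 CPM in Danfeng-2 and 3.46, 2.47, 44.2 and 83.4 CPM in Cabernet Sauvignon.

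In 3 members the cultivars went opposite ways by at least 1 after E-L 35. VIT_02s0025g04280 held 1622, 1677 and 1558 CPM at E-L 38 in Danfeng-2 and 781, 744 and 1092 CPM in Cabernet Sauvignon. The Danfeng-2 libraries at E-L 35 straddle this level, with replicate 1 above all of E-L 38 and its partners below. VIT_10s0003g00480 had medians of 0.840, 6.68, 7.51 and 30.1 CPM in Danfeng-2 and 0, 0.0461, 9.68 and 1.54 CPM in Cabernet Sauvignon, and VIT_11s0037g01230 had 2.13, 3.79, 16.01 and 33.3 CPM in Danfeng-2 and 2.13, 7.62, 46.4 and 22.1 CPM in Cabernet Sauvignon. In the remaining 4, VIT_02s0025g04330, VIT_18s0001g06090, VIT_05s0077g01560 and VIT_05s0077g01550, Cabernet Sauvignon was at least 1 below its E-L 35 level at E-L 38 and Danfeng-2 was within 1. At E-L 38, 22 members had every Danfeng-2 library below every Cabernet Sauvignon library, 15 had every one above and 2 overlapped, where 36.6% and 40.2% of all tested models lay below and above. At E-L 35, 18 lay below, 7 above and 14 overlapped, against 24.1% and 44.8% of all tested models below and above. At E-L 33, 12 lay below and 9 above, against 27.5% and 36% of all tested models.

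**Figure D5:**
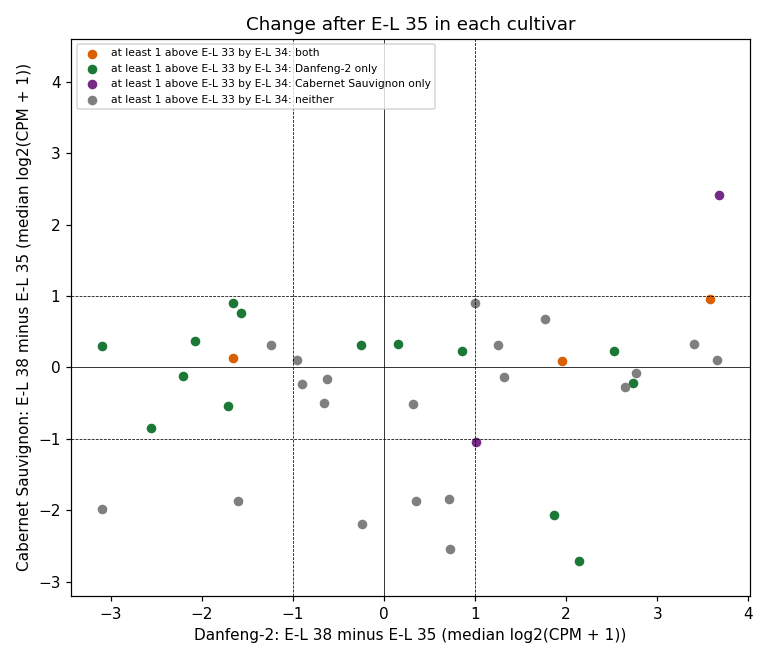
Difference between E-L 38 and E-L 35 of the median log2(CPM + 1), Danfeng-2 on the x axis and Cabernet Sauvignon on the y axis, for the 39 members coloured by class at E-L 34; dashed lines mark 1 and -1. Danfeng-2 spreads from -3.09 to 3.68, with 15 members at or above 1 and 11 at or below -1, and 29 members of Cabernet Sauvignon lie between the lines.

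Levels of different models are set beside each other in FPKM as deposited, a level per length and depth. FPKM did not follow CPM and the listed length in every model. In Cabernet Sauvignon E-L 34, VIT_12s0059g01720 held 0.476 and 0.461 CPM but 0.481 and 1.45 FPKM in replicates 1 and 2. FPKM per CPM also differed between the cultivars. At E-L 35, VIT_07s0141g00890 averaged 26.7 CPM and 14.1 FPKM in Danfeng-2, and 30.2 CPM and 19.6 FPKM in Cabernet Sauvignon. The order below is that of the deposited FPKM. At E-L 35, the highest mean over both cultivars was that of VIT_05s0077g01570, with 6990.4 ± 663 FPKM in Danfeng-2 and 3740.2 ± 136 FPKM in Cabernet Sauvignon (SD, n = 3 each, as for the values that follow). VIT_02s0025g04280 had 2535 ± 3687 FPKM in Danfeng-2 and 7083 ± 284 FPKM in Cabernet Sauvignon. The large SD in Danfeng-2 comes from replicate 1. VIT_13s0067g02930 had 127 ± 90.9 FPKM in Danfeng-2 and 2264 ± 78.1 FPKM in Cabernet Sauvignon, and VIT_02s0025g04330 had 30.2 ± 21.3 and 1270.0 ± 37.1 FPKM. VIT_04s0044g01110 had 410.1 ± 237 FPKM in Danfeng-2 and 708 ± 12.5 FPKM in Cabernet Sauvignon. Between the cultivars the order of these 5 differs: VIT_05s0077g01570 leads in Danfeng-2 and VIT_02s0025g04280 in Cabernet Sauvignon.

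By position, the members lay on 15 chromosomes, with 6 each on chromosomes 2 and 5 and 4 each on 10, 11 and 16. Chromosomes 2 and 5 held 3.83% and 5.44% of all tested models, against 15.4% of the members each. Several members were neighbours. On chromosome 5 from 1232007 to 1264645, 4 of 5 consecutive models were members: VIT_05s0077g01530, VIT_05s0077g01550, VIT_05s0077g01560 and VIT_05s0077g01570. The last spans nearly the whole stretch on the plus strand and overlaps the other 3, which lie on the minus strand. Whether counting used the strand is not given in the sources used, so reads of this stretch cannot be assigned to one model with certainty.

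In FPKM as deposited, the levels in this stretch were far apart. At E-L 35, where VIT_05s0077g01570 had the FPKM given above, VIT_05s0077g01530 had 25.8 ± 3.39 FPKM in Danfeng-2 and 33.3 ± 0.309 FPKM in Cabernet Sauvignon. VIT_05s0077g01560 had 20.04 ± 23.2 FPKM in Danfeng-2 and 101 ± 4.43 FPKM in Cabernet Sauvignon. Over the stages, VIT_05s0077g01550 had medians of 0.168, 0.562, 4.49 and 8.11 CPM in Danfeng-2 and 0.0577, 0.186, 11.4 and 1.12 CPM in Cabernet Sauvignon. VIT_05s0077g01560 had 0.112, 0.140, 4.42 and 3.59 CPM in Danfeng-2 and 1.68, 2.47, 45.7 and 9.19 CPM in Cabernet Sauvignon. For the 3 minus-strand models E-L 35 was the highest stage in Cabernet Sauvignon, and their medians there were 16.7, 11.4 and 45.7 CPM. Other neighbours were VIT_16s0039g01100 and VIT_16s0039g01130, which are consecutive on chromosome 16 from 598340 to 652698, the overlapping VIT_10s0042g00870 and VIT_10s0042g00880 on chromosome 10 from 14241817 to 14306520, and VIT_02s0025g04280 and VIT_02s0025g04330 on chromosome 2 from 3799827 to 3822797, with 1 model between them. Of the 39 members, 15 overlap another model between start and end (38.5%), against 16.4% of all tested models. Overlap of the counted sequence was not computed, so whether reads are split is uncertain for these. The members' median length was 1424 bp and that of all tested models 1710 bp.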

How the data were processed

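Skin RNA from 24 libraries, 3 for each of 2 cultivars at 4 stages, was sequenced, and each library has a table of 27711 gene models. The authors deposited 3 values for each model: a raw count, an FPKM (a level per length and depth) and a normalized signal, per the file headers. The FPKM did not follow the listed length in every model. The submitters' processing notes name TopHat2; not given in the sources used here are its version, the counting program, the genome build, the annotation, the strand setting and the scale of the normalized signal, which was not used. Reads of both species were counted on the same models, so a level can also reflect how well reads of a species match them, which was not tested.

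The members and lists were chosen with earlier results of these data known. Libraries were grouped by their labels. Models with enough counts by edgeR's filter (18375 of 27711) were fitted together over all 8 groups with TMM scaling and the quasi-likelihood test in edgeR 4.0.16 (R 4.3.3), and p-values were adjusted by Benjamini and Hochberg over all of them. A call needs an adjusted p below 0.05 and at least 2-fold. The SE was derived as the log2 fold change over the square root of the quasi-F statistic. The fit was also run on simulated counts. These had the same spread in every model and no library that stood apart, so that run cannot show how the fit behaves here. With CPM from the column sum, the median model was 0.10 higher in Danfeng-2 at E-L 34 on the log2 scale, against 0.00 with TMM, so fold changes are from the fit and CPM carries that shift. Alternatives used limma 3.58.1 on FPKM at pseudocounts of 1 and 0.1, DESeq2 1.42.0, other scalings and filters, a replicate block, and each library left out.

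The models named are the 10 members with the largest difference reached in both cultivars, 5 on each side of the threshold, up to 5 called in each direction at E-L 34 with at least 20 CPM and no overlap, the 5 with the highest FPKM at E-L 35, those in the 3 longest runs of neighbours, and the 3 at each end of the difference between E-L 38 and E-L 35. Other members named were chosen after their values were seen. Lists of products could not be used because 0 of 27711 identifiers matched the reference table. No pairing by replicate number was seen at E-L 34: deviations of same-numbered libraries correlated at -0.03, 0.03 and -0.02. Those of differently numbered libraries lay between -0.05 and 0.04. With 3 libraries in a group, and Cabernet Sauvignon replicate 3 apart from its partners, this check could miss a pairing. Totals of 13201295 to 23095568 counts per library set the precision, and for a group with 0 to 3 counts a ratio or bound from the counts is given in place of a fitted fold change.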

Additional observations from a re-analysis of the deposited data

Results flagged for a closer look

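In 19 cases every library of a later stage lay above every library of the earlier one in one cultivar and below it in the other. The share of all tested models with this pattern was not computed, so nothing is read from the number of cases. The difference between the cultivars' changes was not tested in any of them, and the stages E-L 33, E-L 35 and E-L 38 chose the members. The values are the change of the median log2(CPM + 1) in Danfeng-2 minus that in Cabernet Sauvignon. In 7 of the 19 the change was at least 1 in size in both cultivars.

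Between E-L 34 and E-L 33 there were 10 such members. The widest were VIT_16s0039g01130 at 6.66 and VIT_16s0039g01100 at 6.62, neighbours on chromosome 16, then VIT_10s0042g00870 at 4.27, VIT_12s0059g01720 at 4.05 and VIT_10s0042g00880 at 3.86. VIT_11s0065g00350 had 3.13, VIT_16s0039g01300 had 3.08, VIT_02s0025g02920 had 2.14 and VIT_08s0105g00380 had 0.70. VIT_05s0077g01150 went the other way at -2.68, with Cabernet Sauvignon above its E-L 33 level and Danfeng-2 below.

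Between E-L 38 and E-L 35 there were 9. Danfeng-2 was higher at E-L 38 and Cabernet Sauvignon lower in VIT_05s0062g00480 at 2.95, VIT_11s0052g00630 at 2.92, VIT_17s0000g00430 at 2.85, VIT_18s0001g06090 at 2.55, VIT_11s0037g01230 at 2.05 and VIT_11s0016g05430 at 0.84. The Cabernet Sauvignon changes in that order were -0.22, -0.28, -0.08, -1.84, -1.04 and -0.52. The reverse was seen in VIT_11s0065g00350 at -2.44, VIT_05s0077g01570 at -1.79 and VIT_14s0171g00400 at -1.55, with Cabernet Sauvignon changes of 0.37, 0.13 and 0.31.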

How the results depend on the processing

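The number of models that met the rule moved with its settings: 62 with means in place of medians (34 of the 39 among them), 109 with a pseudocount of 0.1, 76 with a threshold of 1.5, 15 with 2.5, and 39 to 60 with 1 library left out. Of the 62 members by means, 29 were called higher (46.8%) and 13 lower (20.97%) at E-L 34, against 12.8% and 14.6% of all tested models. Among the 39, 20 to 23 were called higher and 6 to 8 lower in Danfeng-2 over all settings of the E-L 34 test, with 20 to 22 and 6 to 7 when 1 library was left out. The share of all tested models called ranged from 9.52% to 15.5% higher and from 10.2% to 15.7% lower over these settings. The replicate block gave 21 higher and 7 lower. DESeq2 gave an adjusted p for 36 of 39 members and called 22 higher and 6 lower. Members at least 1 above their E-L 35 level at E-L 38 in Cabernet Sauvignon numbered 2 with TMM-scaled CPM, 2 with FPKM, and 1 to 3 with 1 library left out. With 1 library left out, the count at least 1 above E-L 33 by E-L 34 was 17 to 22 in Danfeng-2 and 5 to 7 in Cabernet Sauvignon, that with opposite changes 6 to 8, and that with the larger difference in Cabernet Sauvignon 22 to 32. Log2 fold changes at E-L 34 that turned sign were those of 6 members, none called with all libraries: VIT_02s0025g04280 (0.0391 and 0.03995 with limma at a pseudocount of 1 and 0.1, -0.212 to 0.0513 with 1 library left out), VIT_17s0000g00430 (-0.0254 without the 3 libraries that stood apart, -0.0252 to 0.232 with 1 left out), VIT_05s0077g01570 (-0.305 to 0.00605 with 1 left out), VIT_04s0044g01110 (-0.0131 with the size factors of DESeq2 in edgeR, -0.0132 with DESeq2, -0.161 without the 3 libraries, -0.162 to 0.119 with 1 left out), VIT_12s0059g00880 (0.0385 without the 3 libraries, -0.388 to 0.0405 with 1 left out) and VIT_08s0058g00400 (0.102 and 0.412 with limma at the 2 pseudocounts, 1.497 without the 3 libraries, where it was called higher, and up to 1.49 with 1 left out). The cause was not tested. Members with a median near 0 CPM at E-L 33 are limited by depth, since a pseudocount of 1 sets the size of their difference.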
